A study of Homo sapiens with 8 samples.

Results

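The clustered histone genes are described here in the human embryonic stem cell line H9, in wild-type (WT) libraries and in libraries from an EXT1-/- line made by CRISPR/Cas9. They were found by symbol: entries of the deposited gene table that begin with HIST1, HIST2, HIST3 or HIST4, without pseudogenes, which gave 11 genes of 15811. The 11 encode 3 H2A, 3 H2B, 1 H3 and 3 H4 proteins and, in HIST1H1C, 1 linker histone H1, which is not a core histone. EXT1 encodes an enzyme that lengthens heparan sulfate chains, and the study asked how cells without heparan sulfate choose their fate. All 8 libraries, 4 from each genotype, came from cells kept for 28 h in RPMI-1640 with 6 µM CHIR-99021, a GSK3 inhibitor used to induce mesendoderm. The EXT1-/- cells are described as 1 line, and the labels do not say whether the libraries of a genotype came from separate cultures, so a p-value here covers the spread among these libraries alone, which may be technical.

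Core histones H2A, H2B, H3 and H4 form the spool around which DNA winds, and H1 binds the DNA between spools. Most clustered histone genes are switched on as DNA is copied, through the coactivator NPAT and its partners at histone locus bodies. Their messengers usually carry no poly(A) tail: the 3′ end is cut just after a short hairpin, the stem-loop, which the protein SLBP binds. Some of these genes can also make longer, polyadenylated messengers when transcription passes the stem-loop and reaches a downstream poly(A) signal.

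The stem-loop is shown first because it is the feature that sets this family apart from most other genes. Each line gives the RNA-sense strand from 5′ to 3′ as DNA letters, read from a GENCODE 29 transcript of the gene, and the capitals mark the 16-base stem-loop of 6 base pairs and a 4-base loop.
HIST2H4A: caaaGGCCCTTTTTAGGGCCgaccactt
HIST2H4B: caaaGGCCCTTTTTAGGGCCgaccactt
HIST1H3G: aaaaGGCTCTTTTAAGAGCCgcctactt
HIST1H2AG: caacGGCTCTTTTCAGGGCCacccacgt
HIST1H4J: aaaaGGCCCTTTTCAGGGCCacccta
HIST1H2BH: caaaGGCTCTTTTCAGAGCCacttaatg
HIST3H2A: taaaGGCTCTTTTCAGAGCCacctacta
The hairpin was also found in HIST1H2AC and HIST2H2BE, which makes 9 of the 11 genes. The annotated transcripts of HIST1H1C and HIST1H2BK end at the stop codon, so no sequence after it was searched. The same pattern (GG at the start of the stem, pairs of the 6-base stem with G-T allowed, and a TTTN loop) occurred in 0.324% of 83047 protein-coding transcripts outside the histone clusters.

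Promoters are shown for 2 of the genes that rose, HIST2H4A and HIST1H2AG, because they encode different histone types. They are the 180 bases before the RefSeq gene start (GRCh38.p14), 5′ to 3′ on the gene's own strand, which is the plus strand for both. HIST2H4A lies at chr1:149832477-149832656 and HIST1H2AG at chr6:27132863-27133042. Capitals mark GGTCCG, which is part of the H4 subtype element, in HIST2H4A, and CCAAT or TATAAA on either strand in HIST1H2AG, where the last capital run holds TATAAA on both strands with overlap.
HIST2H4A: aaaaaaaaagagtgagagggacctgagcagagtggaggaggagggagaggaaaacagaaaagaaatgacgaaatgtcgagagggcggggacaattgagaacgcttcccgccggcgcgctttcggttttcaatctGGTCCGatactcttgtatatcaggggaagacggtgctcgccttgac
HIST1H2AG: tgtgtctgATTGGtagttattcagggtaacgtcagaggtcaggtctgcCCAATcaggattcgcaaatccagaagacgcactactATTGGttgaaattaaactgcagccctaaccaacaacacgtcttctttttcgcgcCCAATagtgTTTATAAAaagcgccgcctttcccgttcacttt
Promoters of all 11 genes were matched in RefSeq. Over 250 bases, the promoter of HIST2H4B was identical to that of HIST2H4A at 250 of 250 positions. HIST1H3G held CCAAT 4 times and none of TATAAA, ATTTGCAT or GGTCCG. HIST1H4J, the other H4 gene, held GGTCCG 1 time and TATAAA 1 time. The 3 H2B promoters each held ATTTGCAT, the octamer motif of H2B genes, 1 time, as did the H2A promoters of HIST1H2AC and HIST1H2AG. GGTCCG was also present 2 times in the H2B gene HIST2H2BE, so the motifs did not divide the genes by histone type. For scale, among 35116 RefSeq promoters of the same length and with both strands searched, CCAAT was present in 32.0%, TATAAA in 10.7%, GGTCCG in 9.43% and ATTTGCAT in 1.63%. A match describes the letters only.

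The libraries need a short account because several results below move with it. The values are normalised read counts (deposited whole numbers scaled by the authors), with totals of 37737058 to 40017763 per library, and 1 CPM, the usual count scaled to library size, is 38.9 of them. The targeted gene EXT1 had values of 1776, 1499, 1464 and 1508 in the WT libraries, and of 890, 894, 915 and 980 in those labelled EXT1-/-, so it was lower without overlap but not absent. Mitochondrially encoded transcripts took 9.18 to 10.7% of the counts in WT replicate 1 and EXT1-/- replicates 1 and 4 (the high mitochondrial set) and 5.30 to 5.43% in the other 5 libraries (the low set). Small nuclear RNAs summed to 1287 in WT replicate 4 and 1458 in EXT1-/- replicate 2, against 57 to 104 elsewhere. Of the mesendoderm markers 5 of 5 were in the table, and TBXT, MIXL1, EOMES and NODAL were called lower in EXT1-/- cells by the test below. Their sum was 31086 to 35294 in WT and 11256 to 17417 in EXT1-/- libraries. Neuroectoderm markers (3 of 5 in the table) summed to 248 to 276 in WT and 2627 to 4571 in EXT1-/- libraries, with ZIC1 and POU3F2 called higher and OTX2 called lower. Amnion and lateral mesoderm markers (4 of 5 in the table) summed to 84 to 93 in WT and 324 to 622 in EXT1-/- libraries, with TFAP2A, HAND1 and TBX3 called higher and GABRP called lower. None of the 5 blood markers was in the table. Whether these shifts in cell state play a part in the histone values was not tested.

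All 11 clustered histone genes had a higher fitted value in EXT1-/- than in WT cells, and 4 of them rose: the H4 copies HIST2H4A and HIST2H4B, the H3 gene HIST1H3G and the H2A gene HIST1H2AG. The other 7 were not called in either direction, and none was called lower. A gene is called where limma, fitted on log2(value + 1) of all 15811 genes, gave a Benjamini-Hochberg adjusted p under 0.05. Of all genes tested 15.2% were called higher and 16.8% lower, which is the background for the 4 of 11 and the 0 of 11. The median log2 fold change of the 11 genes was 0.41, beside 0.01 over all genes and -0.03 over the 3336 genes whose mean lay in the same range of 24.9 to 135.4 normalised counts. In those 3336 genes 13.1% were called higher, 20.8% lower, and 48.1% had a positive fold change (51.5% of all genes). The authors' deposited table gives the status UP to the same 4 genes and DOWN to 0, with UP given to 12.6% of the table. Adding 1 before the logarithm pulls the fold change of low genes towards 0. The fit averages logarithms, so it can still exceed a ratio of means, as for HIST2H4A (1.77, against 1.67 in the authors' deposited table). In bulk libraries a change in the share of cells that carry a messenger and a change in its amount per cell cannot be told apart.

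**Figure D1:**
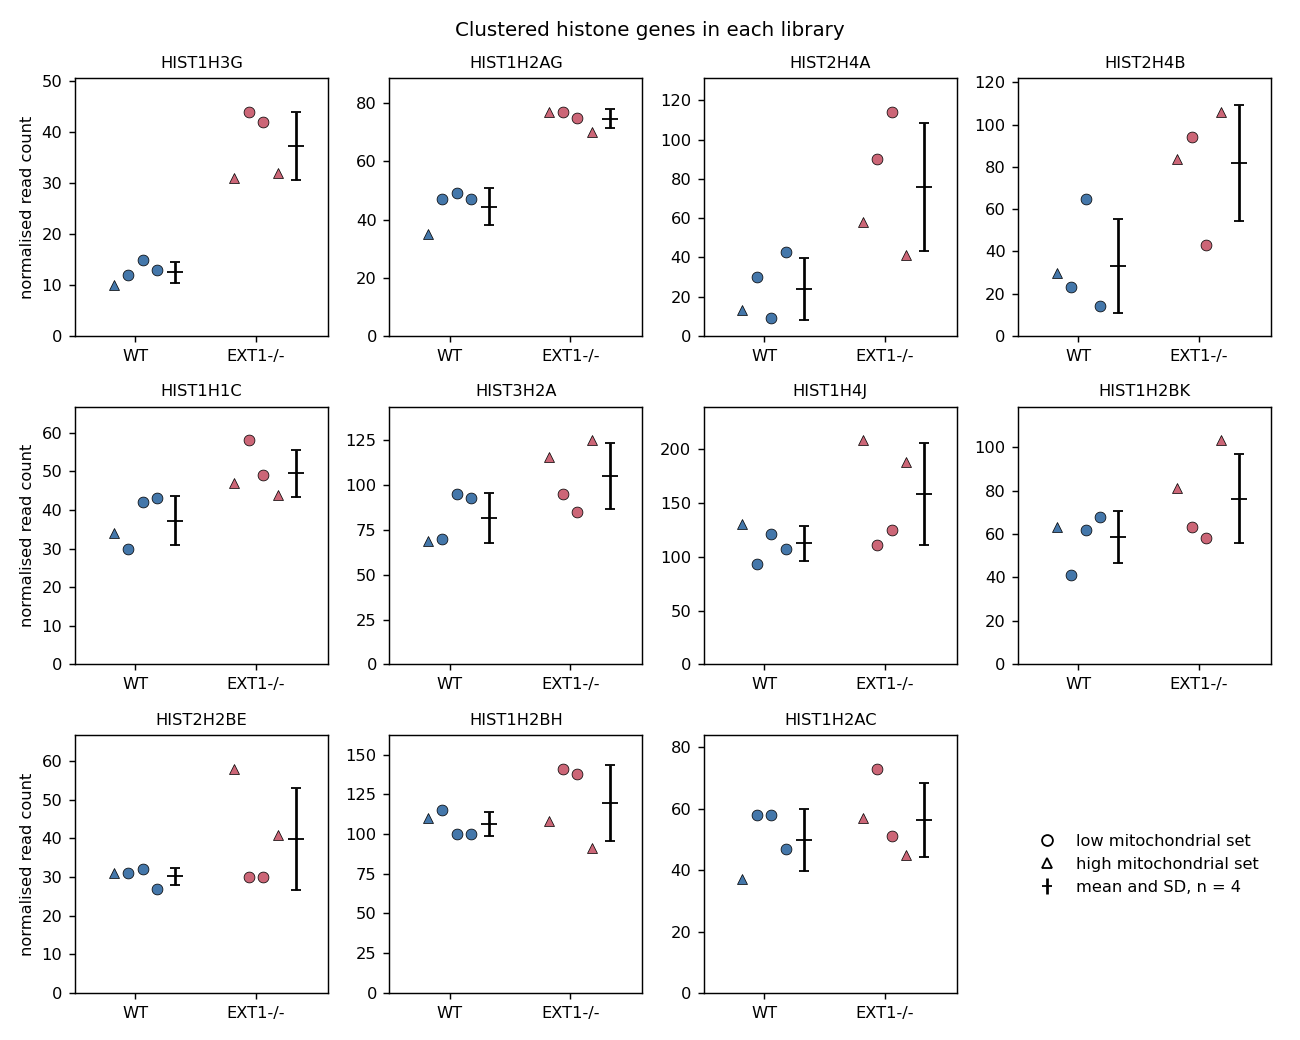
Normalised read count (vertical axis, a scale of its own for each gene, starting at 0) of the 11 clustered histone genes in the 4 WT (blue) and 4 EXT1-/- (red) libraries; circles are the low and triangles the high mitochondrial set, and the black bar is the mean with its SD. HIST1H3G, HIST1H2AG and HIST1H1C are the 3 genes whose groups do not overlap.

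The only H3 gene in the table was HIST1H3G (ENSG00000273983), on the minus strand at chr6:26269405-26271815 in GRCh38. Its values were 10, 12, 15 and 13 in WT libraries and 31, 44, 42 and 32 in EXT1-/- libraries. Every EXT1-/- library was above every WT library, and the lowest EXT1-/- value was more than double the highest WT value. The means were 12.5 ± 2.08 and 37.3 ± 6.70 (SD, n = 4 each), with a log2 fold change of 1.50 ± 0.24 (SE) and a limma adjusted p of 0.00142. Permuting the genotype over all 70 divisions (exact, two-sided) returned p = 0.0286, and 4 against 4 libraries can reach no lower value. The gene reached 1 CPM in 0 WT and 2 EXT1-/- libraries, so it entered the table through its high EXT1-/- values. Neither p-value allows for that entry, so neither counts as support for the rise. Of its 50-base windows, 0 were shared with another gene.

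HIST1H2AG (ENSG00000196787), an H2A gene on the plus strand at chr6:27133042-27135291, read 35, 47, 49 and 47 in WT and 77, 77, 75 and 70 in EXT1-/- libraries. The groups did not overlap, and the 4 EXT1-/- values lay close together. The means were 44.5 ± 6.40 and 74.8 ± 3.30 (SD, n = 4 each), with a log2 fold change of 0.75 ± 0.15 (SE) and a limma adjusted p of 0.00470. Of its 50-base windows 4.13% were shared with other genes. HIST1H3G and HIST1H2AG were also called higher in each of the 22 other settings that gave them a value. For HIST1H3G none of these settings allows for its entry through EXT1-/- libraries, so its repeated calls are not support for the rise.

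HIST2H4A and HIST2H4B are inverted copies on chromosome 1. HIST2H4A (ENSG00000270882) lies on the plus strand at chr1:149832659-149839767 and HIST2H4B (ENSG00000270276) on the minus strand at chr1:149854045-149861210. Their transcripts shared 97.5% and 97.2% of 50-base windows with each other, and 1 pair of annotated transcripts was identical over 610 bases. Each also overlaps exons of an H3 gene on the opposite strand, HIST2H3C for HIST2H4A and HIST2H3A for HIST2H4B; whether counting used strand is not given in the sources used here. Reads from one copy therefore could be assigned to the other, and the values of each copy on its own are uncertain.

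HIST2H4A read 13, 30, 9 and 43 in WT and 58, 90, 114 and 41 in EXT1-/- libraries, so EXT1-/- replicate 4 lay below WT replicate 4. HIST2H4B read 30, 23, 65 and 14 in WT and 84, 94, 43 and 106 in EXT1-/- libraries, where EXT1-/- replicate 3 lay below WT replicate 3. Among the WT libraries the order of one copy was the reverse of the other, and the lowest EXT1-/- library of each copy was the highest of the other, while EXT1-/- replicate 2 was second highest in both. The share of HIST2H4A in the pair ran from 12.2% in WT replicate 3 to 75.4% in WT replicate 4, and from 27.9% in EXT1-/- replicate 4 to 72.6% in EXT1-/- replicate 3. Taken singly, the log2 fold changes were 1.77 ± 0.51 for HIST2H4A and 1.42 ± 0.46 for HIST2H4B (SE), with limma adjusted p of 0.0274 and 0.0420. Both calls were lost in some other settings, HIST2H4A in 5 of 21 and HIST2H4B in 10 of 21. Leaving out WT replicate 1 or EXT1-/- replicate 2 ended both.

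The sum of the copies does not depend on how reads were split between them. It was 43, 53, 74 and 57 in WT and 142, 184, 157 and 147 in EXT1-/- libraries, and the lowest EXT1-/- sum was nearly double the highest WT sum. The means were 56.8 ± 12.9 and 157.5 ± 18.7 (SD, n = 4 each), a ratio of 2.78. Entered as 1 gene, a choice made after the data were seen, the pair had a log2 fold change of 1.48 ± 0.17 (SE) and a limma adjusted p of 0.000266. The exact permutation p was 0.0286. Both copies entered the table only through EXT1-/- libraries, as told below, and these p-values do not allow for that. Counting alone would give an SD of about the square root of the mean, which is 7.53 in WT and 12.5 in EXT1-/- cells for the sum. For HIST2H4A alone the SDs were 15.7 and 32.6 while the roots were 4.87 and 8.70, so the single copy varied further beyond counting than the sum did. The pair was called higher in all 21 other settings, with log2 fold changes of 1.34 to 1.61 and a largest adjusted p of 0.00520 by limma.

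**Figure D2:**
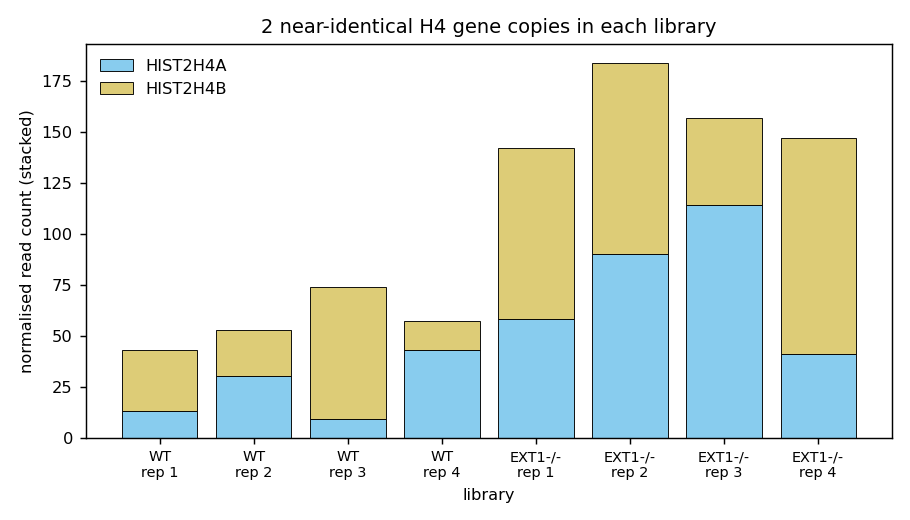
Normalised read count of HIST2H4A (light blue) and HIST2H4B (yellow), stacked, in each of the 8 libraries. The share of HIST2H4A ranges from 12.2 to 75.4%, while the stacked height is 43 to 74 in WT and 142 to 184 in EXT1-/- libraries.

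The third H4 gene, HIST1H4J (chr6:27824108-27824480, plus strand), had the highest value per kilobase of longest transcript among the 11, at 302 normalised counts per kb in WT and 424 in EXT1-/- cells. It read 130, 93, 121 and 107 in WT and 208, 111, 125 and 188 in EXT1-/- libraries. The 2 high EXT1-/- values were replicates 1 and 4, and the other 2 lay among the WT values. Its log2 fold change of 0.45 ± 0.22 (SE) was not called (limma adjusted p of 0.149). Of its windows 81.2% were shared with HIST1H4K, so this value too may hold reads of another gene.

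Of the other H2A genes, HIST3H2A (chr1:228456979-228457873, minus strand) read 69, 70, 95 and 93 in WT and 116, 95, 85 and 125 in EXT1-/- libraries. HIST1H2AC (chr6:26124145-26139116, plus strand) read 37, 58, 58 and 47 in WT and 57, 73, 51 and 45 in EXT1-/- libraries. The groups overlapped in both, and neither was called, with log2 fold changes of 0.36 ± 0.17 and 0.17 ± 0.21 (SE) and limma adjusted p of 0.145 and 0.566.

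None of the 3 H2B genes was called. HIST1H2BH (chr6:26251651-26253710, plus strand) read 110, 115, 100 and 100 in WT and 108, 141, 138 and 91 in EXT1-/- libraries. HIST1H2BK (chr6:27146418-27146798, minus strand) read 63, 41, 62 and 68 in WT and 81, 63, 58 and 103 in EXT1-/- libraries, and 74.1% of its windows were shared with 11 other genes. HIST2H2BE (chr1:149884459-149886652, minus strand) read 31, 31, 32 and 27 in WT and 58, 30, 30 and 41 in EXT1-/- libraries. In each of these 3 genes at least 1 EXT1-/- library lay within the WT range or below it. The log2 fold changes were 0.15 ± 0.15, 0.37 ± 0.23 and 0.33 ± 0.24 (SE) in that order, with limma adjusted p of 0.503, 0.258 and 0.323.

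The linker histone HIST1H1C (chr6:26055787-26056428, minus strand) read 34, 30, 42 and 43 in WT and 47, 58, 49 and 44 in EXT1-/- libraries. The groups did not overlap, but the gap between them was a single normalised count. The log2 fold change of 0.41 ± 0.18 (SE) did not pass the threshold (limma adjusted p of 0.113). With HIST1H3G and HIST1H2AG it made 3 of 11 genes in which every EXT1-/- value exceeded every WT value, beside 16.3% of all genes, and 0 of 11 had the opposite order, beside 17.2%.

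**Figure D3:**
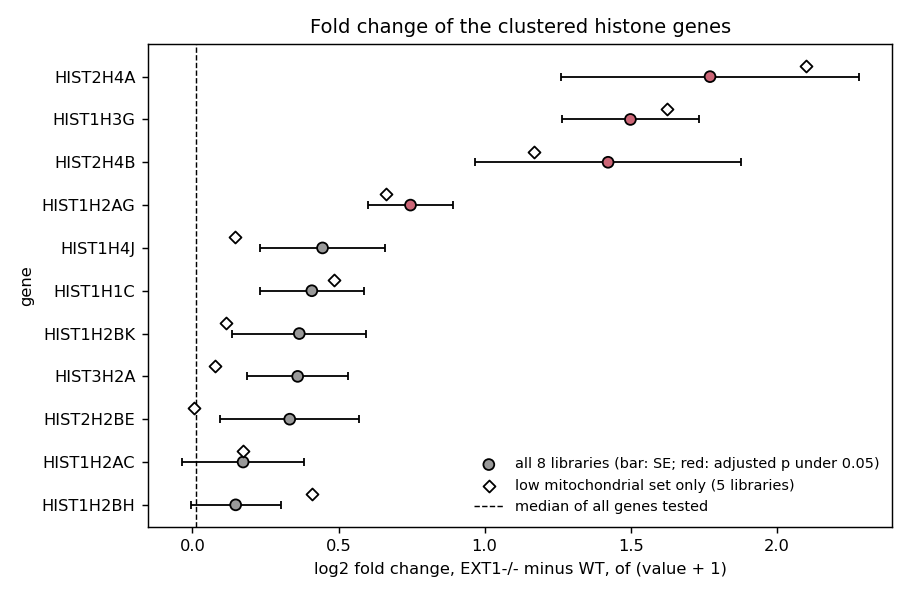
Log2 fold change (EXT1-/- minus WT, on log2(value + 1), horizontal axis) of each gene (vertical axis) with its SE from all 8 libraries, red where called higher and grey where not, with the value in the 5 low-set libraries as a white diamond and the median of all genes, 0.01, as a dashed line. All 11 circles are to the right of the dashed line, from 0.15 to 1.77.

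Summed over the 11 genes, histone values were 562, 550, 648 and 602 in WT and 925, 876, 810 and 886 in EXT1-/- libraries. The means were 590.5 ± 44.3 and 874.3 ± 47.8 (SD, n = 4 each), or 15.2 and 22.5 CPM, a ratio of 1.48. By protein, the ratio of means was 2.98 for H3, 1.86 for H4, 1.34 for H2A, 1.33 for H1 and 1.21 for H2B. The 5 sums did not overlap between groups, and 16.3% of all single genes had every EXT1-/- value above every WT value. The H3 and H1 sums are 1 gene each. By locus the ratio was 2.27 for the 3 HIST2 genes, 1.36 for the 7 HIST1 genes and 1.29 for HIST3H2A, and only the last overlapped. The sums for H3, H4, H2B, HIST1 and HIST2 hold genes that entered the table only through EXT1-/- libraries. Without HIST2H4A and HIST2H4B the ratio was 1.34. These sums are given without a test, because the genes were chosen together.

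Entry into the table bears on these counts. The table holds genes with about 1 CPM in at least 2 libraries. Only 7 of the 11 genes reached 1 CPM in 2 or more WT libraries, and HIST2H4A, HIST2H4B, HIST1H3G and HIST2H2BE met it only through EXT1-/- libraries. A gene that enters through its high group had to be higher there. Among the 7 that entered on WT values, 1 (HIST1H2AG) was called higher. That share is near the background of 15.2% of all genes and 13.1% of genes in the same range of means. For these 7 the median log2 fold change was 0.37 and the ratio of summed means was 1.30. Neither the 4 calls nor the median of 0.41 thus counts as support for a direction of the family. The p-values of HIST1H3G, HIST2H4A, HIST2H4B and the summed pair do not allow for this entry either.

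Most of the family was outside the table. GENCODE 29 lists 71 protein-coding clustered histone genes, and 11 were in it: 7 of 55 at HIST1, 3 of 12 at HIST2, 1 of 3 at HIST3 and 0 of 1 at HIST4. The other 60 were not analysed here. The 11 had long annotated transcripts, with a median longest transcript of 1668 bases against 459.5 bases for the other 60. An annotated transcript ran at least 100 bases past the stem-loop in 8 of 11 (72.7%) against 14 of 60 (23.3%). In 33 of the 60, against 2 of the 11, every annotated protein-coding transcript ended at the stop codon and could show no stem-loop. A stem-loop was found in 22 of the 60 and in 9 of the 11. How far both contrasts reflect the completeness of the annotation was not tested. HIST2H4A ran 194 bases past it, HIST2H4B 690, HIST1H3G 1518 and HIST1H2AG 1761, while HIST1H4J ended 6 bases after it. In WT cells the 11 genes spanned 5.18 (HIST1H3G) to 302 (HIST1H4J) normalised counts per kb of longest transcript. A list of replication-independent histones, which holds histone genes not named HIST1 to HIST4, had 11 genes in the table. These spanned 74.6 (H2AFJ) to 15647 (H3F3A, which encodes H3.3), so the ranges overlap. The kit is labelled as total RNA, and small RNAs without a poly(A) tail differed in level: RN7SK read 97 to 363 normalised counts, RN7SL1 723 to 3674 and RN7SL2 1114 to 4849. How far the preparation recovers messengers without a tail was not tested.

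**Figure D4:**
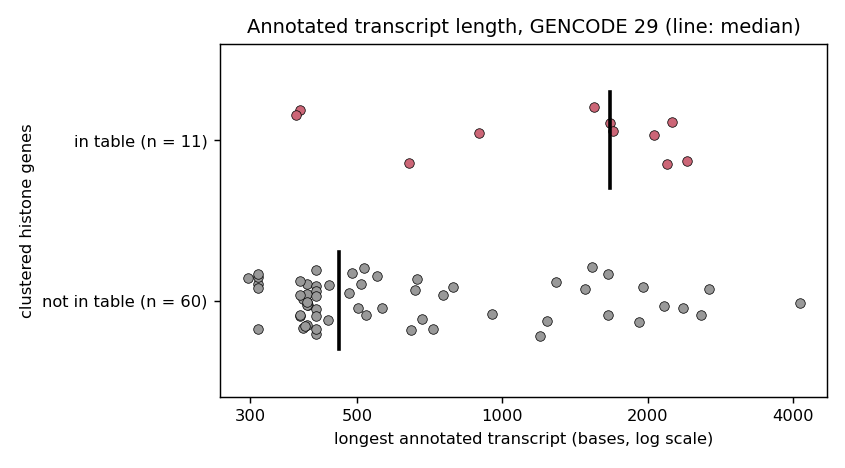
Longest annotated transcript in bases (horizontal log axis) of the 71 protein-coding clustered histone genes of GENCODE 29, for the 60 outside and the 11 in the deposited table (vertical axis; points are spread vertically for visibility and the line is the median). The medians are 459.5 and 1668 bases, and both groups hold short and long transcripts.

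Within the EXT1-/- libraries 8 of the 11 histone genes differed between the mitochondrial sets without overlap, 4 in each direction. HIST1H4J, HIST3H2A, HIST1H2BK and HIST2H2BE were higher in both high-set libraries than in both low-set libraries, for example 188 and 208 against 111 and 125 for HIST1H4J. HIST1H3G, HIST1H2BH, HIST2H4A and HIST1H1C were lower in both, for example 91 and 108 against 138 and 141 for HIST1H2BH. The other 3 overlapped. Of all genes 38.1% were higher and 32.6% lower in both high-set EXT1-/- libraries, so the shares in the histone genes are near the background. The GC content of the annotated transcripts was 48.0 to 62.2% in the first group and 41.6 to 57.5% in the second, so the ranges overlap. These orders rest on 2 libraries each and carry no test.

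The same fit on the low set alone, with 3 WT and 2 EXT1-/- libraries, moved the fold changes in both directions. The log2 fold change was 1.62 for HIST1H3G (limma adjusted p of 0.00337), 0.66 for HIST1H2AG (0.0144) and 2.10 for HIST2H4A (0.0183). It was 1.17 for HIST2H4B (limma adjusted p of 0.154), which was not called. HIST1H2BH, not called in all 8 libraries, was called higher with 0.41 (limma adjusted p of 0.0322). For HIST1H4J, HIST1H2BK, HIST3H2A and HIST2H2BE the log2 fold change shrank to 0.15, 0.12, 0.08 and 0.00. These genes were the ones higher in the EXT1-/- libraries that this fit leaves out, so their smaller values are not separate evidence. The same holds for the larger values of the genes that were lower in those libraries. In the low set 21.1% of all genes were called higher. With the set as a further term in all 8 libraries, HIST2H4A, HIST2H4B, HIST1H3G and HIST1H2AG were called higher and HIST1H2BH was not, beside 26.2% of all genes. Neither of these fits allows for the entry of HIST2H4A, HIST2H4B and HIST1H3G through EXT1-/- libraries.

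Genes that work with histones were described from lists of related genes, by counts against the same background of 15.2% higher and 16.8% lower. The lists were chosen with earlier results of these data known, and no background of like level was made for them. The counts are therefore a description and not a test. Of 34 DNA replication genes, all in the table, 16 were called higher and 0 lower, with a median log2 fold change of 0.19. UHRF1, which helps to copy DNA methylation marks onto new strands, read 1771 to 2024 in WT and 2903 to 3457 in EXT1-/- libraries, with a log2 fold change of 0.78 ± 0.07 (SE, limma adjusted p of 6.1e-05). RRM2, a subunit of the enzyme that makes deoxynucleotides, changed by 0.46 ± 0.05, and the helicase subunits MCM2 and MCM4 by 0.36 ± 0.05 and 0.27 ± 0.04 (SE).

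Of 28 genes for histone messenger transcription and 3′ end processing, 5 were called higher and 1 lower, with a median of 0.08. SLBP, the stem-loop binding protein, read 2275, 2541, 2507 and 2432 in WT and 2964, 2963, 2929 and 3032 in EXT1-/- libraries. The groups did not overlap, and the log2 fold change was 0.29 ± 0.05 (SE, limma adjusted p of 0.00311). GON4L changed by 0.46 ± 0.09, CASP8AP2, a component of histone locus bodies, by 0.25 ± 0.06 and CSTF2T, a cleavage factor, by 0.23 ± 0.06 (SE). NPAT, the coactivator of histone gene transcription, was not called, with 0.08 ± 0.06 (SE, limma adjusted p of 0.327). The gene called lower was LSM11, a subunit of the U7 particle that cuts histone messengers, which read 528, 769, 810 and 806 in WT and 448, 598, 571 and 453 in EXT1-/- libraries. The groups overlapped through WT replicate 1, and the log2 fold change was -0.48 ± 0.16 (SE, limma adjusted p of 0.0475). The call was lost in 11 of 23 other settings, among them the fits without WT replicate 2, 3 or 4 and without EXT1-/- replicate 1, 3 or 4, with a largest adjusted p of 0.121 by limma. NPAT and LSM11 were singled out after their values were seen.

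Of 25 histone chaperones and deposition factors, 6 were called higher and 2 lower, with a median of 0.06. UBN2, a subunit of the HIRA complex that deposits H3.3, read 2806 to 3060 in WT and 1698 to 2121 in EXT1-/- libraries and fell by 0.66 ± 0.08 on the log2 scale (SE, limma adjusted p of 0.000293). DNAJC9, a chaperone of H3 and H4, changed by 0.33 ± 0.06, ASF1B, an H3-H4 chaperone of dividing cells, by 0.33 ± 0.06, and TONSL, which reads new H4, by 0.79 ± 0.18 (SE). TONSL was highest in EXT1-/- replicate 4, at 3270 against 1859 to 2335 in the other EXT1-/- libraries.

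Of 13 replication-independent histone genes, 11 were in the table, with 4 called higher, 2 lower and a median of -0.05. H2AFY and H2AFY2, which encode the macroH2A variants, fell by 1.01 ± 0.07 and 0.60 ± 0.10 on the log2 scale (SE), with limma adjusted p of 1.1e-05 and 0.00150. H2AFY read 7734 to 8792 in WT and 3730 to 4413 in EXT1-/- libraries, without overlap. H1F0, a linker histone, and CENPA, the centromeric H3, were called higher with 0.32 ± 0.07 and 0.40 ± 0.10 (SE). The H3.3 genes H3F3A and H3F3B were not called, with -0.07 ± 0.09 and -0.09 ± 0.07 (SE). CENPA lost its call without the 2 libraries high in small nuclear RNA (0.43, limma adjusted p of 0.0558).

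**Figure D5:**
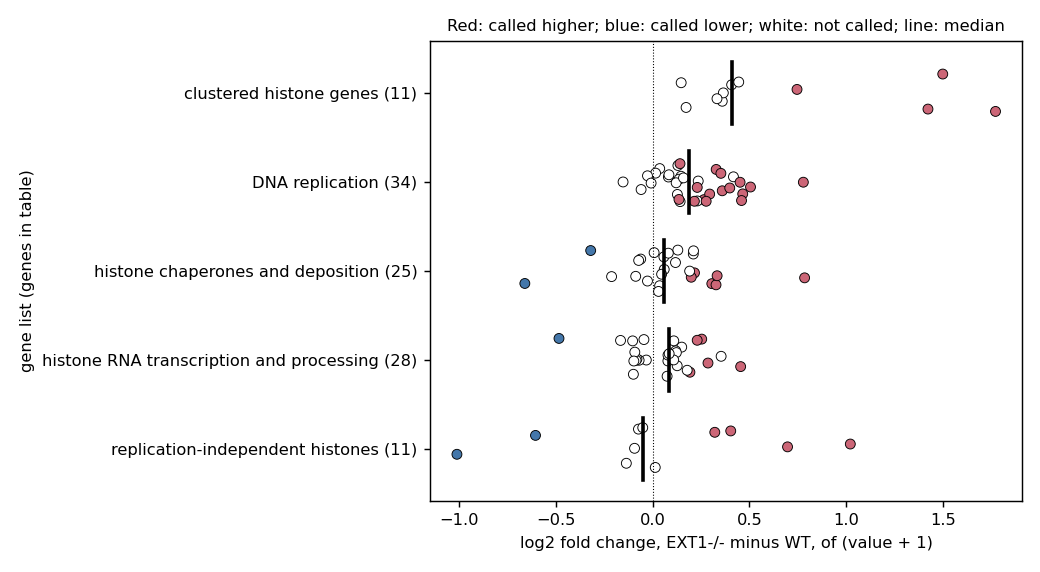
Log2 fold change (EXT1-/- minus WT, horizontal axis) of each gene in the clustered histone family and in 4 lists of related genes (vertical axis; points are spread vertically for visibility), red where called higher, blue where called lower and white where not called, with the median as a line. The medians are 0.41, 0.19, 0.06, 0.08 and -0.05 from top to bottom.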

How the data were processed

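RNA libraries from 4 WT and 4 EXT1-/- samples were used. STAR, RSEM, edgeR and the build GRCh38.p10 are named in the submitters' processing notes, without versions. The authors deposited 1 table with a normalised signal per library (whole numbers, called normalised read counts here). For each gene the authors also deposited log2 values (fold change and mean CPM), a p-value with its FDR, and the score of a likelihood ratio test. The per-library values are not raw counts, since effective library sizes, by the trimmed mean of M values, were nearly equal (38891440 to 38902932), so edgeR and DESeq2 were not run. The planned replacement was used: limma 3.58.1 with an intensity trend in R 4.3.3, on log2(value + 1), genotype as the only term, a minimum mean of 1 in either genotype, and a threshold of 0.05 on Benjamini-Hochberg adjusted p. The fit was tested on simulated data. The authors' filter on low values is described in the report.

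Histone genes, transcripts and stem-loops were read from GENCODE 29 (15768 genes, 99.7%, matched by Ensembl ID) and promoters from RefSeq. Computing used scipy 1.17.1, numpy 2.4.6, matplotlib 3.10.9, pandas 2.3.3 and Python 3.11.15. The genes and lists were chosen with earlier results of these data known. All histone genes in the table are named. Up to 4 genes per related list are named by rule, those with the smallest adjusted p past the threshold. Further list genes are named outside this rule, among them H3F3A, H3F3B, H2AFJ, H2AFZ, H2AFX, H1FX, NPAT and LSM11. Counts at these levels (9 to 208) vary by sampling alone by about their square root. Whether replicate numbers pair the libraries could not be decided, and the main fit did not pair them. Alternatives were other scalings, pseudocounts, filters, a fit without the trend, limma-voom, removed GC and length trends, a replicate block, the library set as a term, the low set alone and each library left out. The summed pair and a fit without the 2 libraries high in small nuclear RNA were added after the data were seen.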

Additional observations from a re-analysis of the deposited data

Results flagged for a closer look

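Of 62 groups of 4 libraries examined, 5 held a library whose gap to its nearest neighbour exceeded Dixon's 95% critical value, and chance gives about 1 in 20. HIST1H2AG was lowest in WT replicate 1, at 35 against 47 to 49 in the other WT libraries. MCM4 was highest in EXT1-/- replicate 1, at 19877 against 18907 to 19035. The mitochondrial share of WT replicate 1 was 10.7% against 5.30 to 5.43% in the other WT libraries. The sum of small nuclear RNAs was 1287 in WT replicate 4 against 58 to 104, and 1458 in EXT1-/- replicate 2 against 57 to 83.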

How the results depend on the processing

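No clustered histone gene was called lower in any of the 22 other settings that gave a value, and their median log2 fold change stayed between 0.32 and 0.52. The number called higher was 4 or 3 in 19 of these, and it was 2 with a replicate block and 2 to 3 with 1 library left out, where the 2 came from the fits without WT replicate 1 and without EXT1-/- replicate 2. In these 3 fits HIST2H4A and HIST2H4B lost their calls and HIST1H3G and HIST1H2AG did not. No setting allows for the entry of HIST2H4A, HIST2H4B and HIST1H3G into the table through EXT1-/- libraries. The replicate block took HIST2H4A to a limma adjusted p of 0.0552 and HIST2H4B to 0.0913. Each library's deviations from the mean of its genotype, on log2(value + 1), were compared over 13004 genes. These deviations correlated by 0.78, 0.44, 0.26 and -0.65 between same-numbered WT and EXT1-/- libraries. Those of WT replicate 1 also correlated by 0.67 with those of EXT1-/- replicate 4, another library of the high mitochondrial set. The signs of the correlations followed the mitochondrial sets, so they cannot decide whether the numbers pair the libraries. Without the 2 libraries high in small nuclear RNA, HIST2H4B was not called (1.01, adjusted p of 0.185). The filter at 5 CPM left no clustered histone gene and gave no value. With the library set as a term, the fold change of H2AFZ turned from -0.05 to 0.17 (limma adjusted p of 0.0193). In that fit 4142 genes were called higher and 4053 lower, and without the libraries high in small nuclear RNA 1390 were called higher. Counts of called genes ranged over settings from 11 to 24 higher for DNA replication, 4 to 9 for histone messenger transcription and processing, 3 to 10 for chaperones and 1 to 6 for replication-independent histones. Those called lower ranged from 0 to 4 for transcription and processing, 1 to 3 for chaperones and 0 for DNA replication, and stayed at 2 for replication-independent histones. The cause of these shifts was not tested. Values of 9 to 208 normalised counts limit the precision for all 11 genes.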

Other observations

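Among the replication-independent histones, H2AFX, whose protein marks DNA breaks, and H1FX, a linker histone, rose most, and both were singled out after their values were seen. H2AFX read 1264 to 1760 in WT libraries and 3194, 2400, 2115 and 5700 in EXT1-/- replicates 1 to 4. H1FX read 1693 to 2756 in WT libraries and 2999, 2980, 2703 and 5161 in EXT1-/- replicates 1 to 4. The limma log2 fold changes were 1.02 ± 0.28 and 0.70 ± 0.22 (SE), with adjusted p of 0.0236 and 0.0397. H2AFX lost its call in 4 and H1FX in 10 of 23 other settings. EXT1-/- replicate 4 stood apart in both, and without it the fold change of H1FX was 0.49 and no longer called (limma adjusted p of 0.0521).

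Of 31 other short or non-polyadenylated RNAs, 7 were in the table and 0 were called by limma in either direction, with a median log2 fold change of -0.38. They were high in WT replicate 4 and EXT1-/- replicate 2, the same libraries in which small nuclear RNAs were high. RMRP, for example, read 159 and 219 there and 66 to 98 elsewhere. Of 6 histone genes known to make polyadenylated messengers, 4 were in the table (HIST1H1C, HIST1H2AC, HIST1H2BK and HIST2H2BE). None of these 4 was called by limma, and their median was 0.35. Of 5 pluripotency markers, all in the table, 3 were called lower (POU5F1, NANOG and DPPA4) and 1 higher (SOX2).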
